A study of Mus musculus with 8 samples.

Results

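The genes described here are 10 genes of Wnt and R-spondin signalling around the central vein of the liver: the ligand Rspo3, the receptors Lgr5 and Lgr4, the membrane E3 ligases Rnf43 and Znrf3, the feedback inhibitors Axin2 and Nkd1, the transcription factors Sp5 and Tbx3, and the enzyme glutamine synthetase, Glul. They were taken by gene symbol from a table of 22155 genes, and all 10 were found and passed the filter on low counts. RNA of whole mouse liver had been sequenced in 8 libraries, 2 in each of 4 groups.

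Yap1 knockout livers came from mice with floxed Yap1 that had received AAV8-iCre, a virus that brings Cre recombinase to the liver, and the labels call the deletion hepatocyte specific. Yap control livers were homozygous for the same floxed allele and had received a GFP virus. Ctgf knockout livers were Ctgf conditional knockouts with no Cre driver given in the sources used here, and Ctgf control livers were Ctgf floxed homozygotes, with no virus named for the Ctgf line. All were C57BL/6 mice by label, 8 to 10 weeks old (8 weeks in the design text). All drank a Lieber-DeCarli diet with 1% ethanol for 2 days and then 2% for 10 days. All received carbon tetrachloride, a toxin that kills the hepatocytes around the central vein, in a dose of 1 µl per g, and livers were collected 2 days later. No group without this injury was analysed here, and the sources used here do not give the sex of the mice.

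Liver lobules are zoned. Wnt ligands and Rspo3 made by the endothelium of the central vein hold β-catenin active in the hepatocytes next to it, and those pericentral hepatocytes express Glul, Axin2 and Lgr5. RNF43 and ZNRF3 remove Frizzled receptors from the membrane, and R-spondins bound to LGR4 or LGR5 take these ligases away, so that more Wnt signal passes. AXIN2, a scaffold of the complex that degrades β-catenin, and NKD1 act as brakes that the pathway itself induces, as does RNF43.

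Total counts ran from 26904021 to 33488609 per library. Albumin, the defining transcript of hepatocytes, was present in every library, with Alb at 29931 to 69274 CPM (read counts scaled to a common library size, the unit of all levels below). Yap control replicate 2 stood apart: all 12 exocrine pancreas markers had counts there and summed to 13131 CPM, against 0.0284 to 0.277 CPM in the other 7 libraries. Results of the Yap1 comparison are therefore given with and without it for the 10 genes, and for most of the other genes and lists named. Yap1 itself stood at 31.0 and 32.5 CPM in Yap1 knockout livers, against 107 and 76.1 CPM in Yap control livers. Ctgf stood at 8.02 CPM in Ctgf knockout replicate 1 but at 49.2 CPM in the library labelled Ctgf knockout replicate 2, against 28.8 and 32.1 CPM in Ctgf control livers. That goes against the label of replicate 2, so directions in the Ctgf line hold for the libraries as labelled. Ctgf was not lower after Yap1 deletion. Yap1 knockout replicate 1 (406 CPM) and replicate 2 (324 CPM) both exceeded Yap control replicate 1 (96.8 CPM) and replicate 2 (50.1 CPM). In that comparison the log2 fold change of Ctgf was 2.31 (SE 0.718, edgeR adjusted p = 0.250). For Yap1 it was -1.53 (SE 0.215, edgeR adjusted p = 0.0557).

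The sequence around the transcription start was available for 6 of the 10 genes in RefSeq (GRCm38.p6, 250 bases before to 50 after the start), in 7 windows because Rnf43 has 2 starts. Shown here are the windows of Rnf43 and Axin2, whose levels set the Yap1 knockouts apart from the other libraries, of Lgr4, whose level did not, and of Sp5, the gene whose level differed most between libraries. Capitals mark a match on either strand to a TCF/LEF core, searched as CTTTG followed by AA, AT, TA or TT, the sites through which β-catenin acts, or to GGAATG, the core bound by the TEAD partners of YAP. The order is Rnf43 at chr11:87662837-87663136, Axin2 at chr11:108920099-108920398, Lgr4 at chr2:109917397-109917696 and Sp5 at chr2:70474673-70474972, all on the plus strand.
Rnf43: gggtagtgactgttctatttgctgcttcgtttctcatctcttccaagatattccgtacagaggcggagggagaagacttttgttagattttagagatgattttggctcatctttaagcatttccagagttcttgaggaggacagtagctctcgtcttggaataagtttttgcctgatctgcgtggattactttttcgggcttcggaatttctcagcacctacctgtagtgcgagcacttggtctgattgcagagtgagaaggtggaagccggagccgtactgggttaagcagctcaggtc
Axin2: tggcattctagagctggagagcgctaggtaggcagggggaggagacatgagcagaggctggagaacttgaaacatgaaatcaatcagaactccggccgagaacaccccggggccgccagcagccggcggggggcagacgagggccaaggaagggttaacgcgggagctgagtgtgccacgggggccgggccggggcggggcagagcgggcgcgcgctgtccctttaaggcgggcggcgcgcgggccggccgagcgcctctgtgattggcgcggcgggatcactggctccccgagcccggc
Lgr4: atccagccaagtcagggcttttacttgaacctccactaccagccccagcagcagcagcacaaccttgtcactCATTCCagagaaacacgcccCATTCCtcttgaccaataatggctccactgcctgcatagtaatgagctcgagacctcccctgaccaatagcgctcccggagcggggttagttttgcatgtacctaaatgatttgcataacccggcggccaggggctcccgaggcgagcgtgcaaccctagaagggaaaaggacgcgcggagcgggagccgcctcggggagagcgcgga
Sp5: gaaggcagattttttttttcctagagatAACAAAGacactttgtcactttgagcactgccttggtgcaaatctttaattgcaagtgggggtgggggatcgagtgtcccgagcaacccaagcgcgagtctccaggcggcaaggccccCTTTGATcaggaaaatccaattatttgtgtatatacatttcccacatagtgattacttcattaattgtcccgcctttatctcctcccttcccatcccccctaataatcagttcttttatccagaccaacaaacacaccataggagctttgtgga

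The Sp5 window held 2 TCF/LEF matches, which began at -222 and -104 relative to the start. Of all 32851 promoter windows, 16.9% held at least 1 such match and 1.94% at least 2. The Lgr4 window held 2 TEAD matches, which began at -178 and -158 relative to the start, and 14.7% of all windows held at least 1. The windows of Rnf43, Axin2, Nkd1 and Glul held neither motif. The RefSeq starts of Rnf43 lay 365 and 37175 bases from its gene start in GENCODE, and that of Nkd1 6279 bases. The windows of Rnf43 and Nkd1 thus do not cover those gene starts. The windows of Axin2 (70.0% G and C) and Glul (64.3%) were richer in G and C than that of Sp5 (45%).

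Levels are compared between genes only per kilobase of annotated exon. On that scale Glul, which makes glutamine from ammonia in the last rows of hepatocytes before the vein, was the most abundant of the 10, with a median of 30.0 CPM per kb over the 8 libraries (range 21.4 to 41.6). Lgr4, the R-spondin receptor expressed across the lobule, followed at a median of 8.74 CPM per kb. Then came Rspo3 at 4.36, Rnf43 at 3.39, Znrf3 at 2.66, Tbx3 at 1.75, Axin2 at 1.44, Nkd1 at 1.28, Sp5 at 0.356 and Lgr5 at 0.172 CPM per kb. Glul alone stood clear of its neighbour, since the ranges of every other pair of neighbours in this order overlapped over the 8 libraries. Between libraries Nkd1 varied least, with a ratio of highest to lowest level of 1.51, and Lgr5 and Sp5 varied most, at 33.5 and 75.9.

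**Figure D1:**
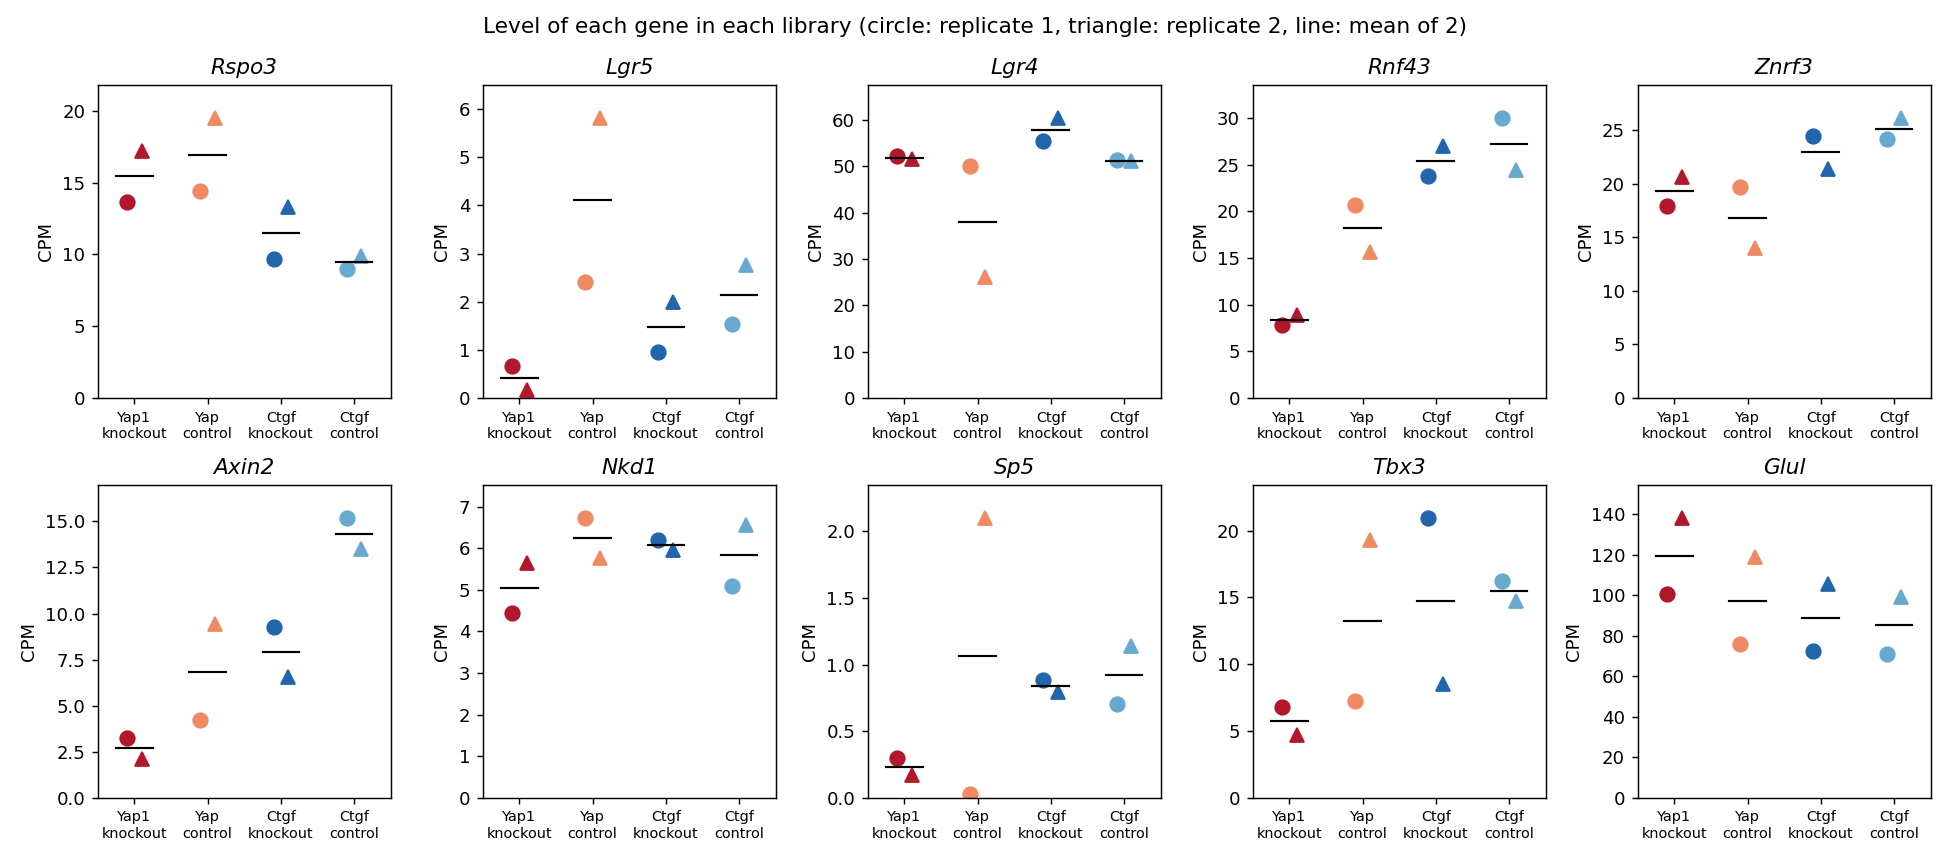
Level of each of the 10 genes (CPM, linear axes from 0) in each library, by group; circles are replicate 1, triangles replicate 2, and lines the mean of the 2. For Lgr5, Rnf43, Axin2 and Tbx3 the Yap1 knockouts lie below every other library, and the Yap controls lie far apart for Sp5, at 0.0277 and 2.10 CPM.

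The first comparison asked what the loss of hepatocyte Yap1 did to these genes in the injured liver. None of the 10 passed the test, but Lgr5, Rnf43, Axin2, Tbx3 and Nkd1 stood lower in both Yap1 knockouts than in both Yap controls, and Lgr4 stood higher. Rnf43 and Lgr5 had the smallest p-values. Glul, the classical pericentral enzyme, did not share the lower levels of these genes, and neither did the ligand Rspo3. Tested with edgeR (quasi-likelihood F test, Benjamini-Hochberg over 13999 genes), 0 of 10 were called, where 0.0286% of all genes were. At an unadjusted p under 0.05 there were 3 of 10 lower and 0 higher, where 7.14% of all genes were lower and 6.64% higher. Groups that do not overlap were common: 20.8% of all genes lay lower in this way, against 5 of these 10, and 23.6% lay higher, against 1 of the 10. The median log2 fold change of the 10 was -0.72, beside -0.0046 over all genes tested. DESeq2 called 2 of the 10, Lgr5 and Rnf43, among 558 genes in all.

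These counts depended on the Yap controls. Against Yap control replicate 1 alone, without the library that holds pancreatic transcripts, 0 of 10 were called and the median was -0.18. Against the control with pancreatic transcripts, replicate 2, alone, edgeR called 6 of the 10, with Lgr5, Rnf43, Axin2, Sp5 and Tbx3 lower and Lgr4 higher. It then called 3728 of 14457 genes in all, where the fit of all libraries called 4 genes. Against replicate 1 alone few genes of any kind passed, so the lack of calls there does not set these genes apart. The median over all genes was 0.018 in that fit. Against replicate 2 alone the median of the 10 was -0.65, beside 0.012 over all genes. In those fits the single control is assumed to vary like the other groups. Whether the pancreatic tissue bears on any of these genes was not tested.

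**Figure D2:**
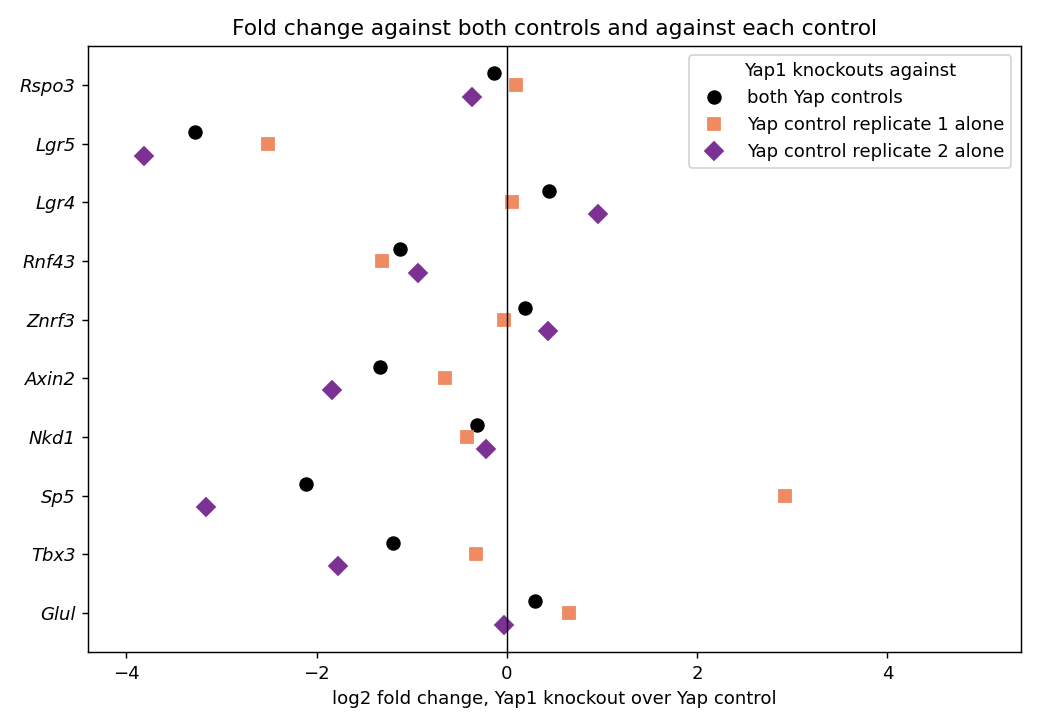
Log2 fold change of each gene in the Yap1 knockouts over both Yap controls (black circles), over Yap control replicate 1 alone (orange squares) and over Yap control replicate 2 alone (purple diamonds). Rnf43 lies between -1.31 and -0.94 and Lgr5 between -3.81 and -2.51 whichever control is used, while Sp5 moves from one side of 0 to the other.

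Rspo3, the R-spondin of the central vein (GRCm38 chromosome 10, 29452416 to 29535867, minus strand), measured 13.6 and 17.2 CPM in Yap1 knockout livers, against 14.4 and 19.5 CPM in Yap control livers. The groups overlapped, and the log2 fold change was -0.13 (SE 0.265, edgeR adjusted p = 0.818, n = 2 against 2). Against Yap control replicate 1 alone it was 0.097. The Yap line held more Rspo3 than the Ctgf line, where its levels ran from 9.02 to 13.3 CPM.

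Lgr5, the R-spondin receptor that in mouse liver marks pericentral hepatocytes (chromosome 10, 115450311 to 115587780, minus strand), had 20 and 5 reads in Yap1 knockout livers, against 87 and 141 reads in the Yap controls. The exact Poisson 95% intervals, which cover counting error only, were 12.2 to 30.9 and 1.62 to 11.7 reads in the knockouts, and 69.7 to 107 and 119 to 166 reads in the controls. The levels were 0.658 and 0.173 CPM in the knockouts, against 2.41 and 5.80 CPM in the controls. No control interval reached a knockout interval, but the controls differed from each other by 2.41-fold and the knockouts by 3.80-fold. The log2 fold change was -3.28 (SE 0.765, edgeR adjusted p = 0.163), with 237 as its place in the order of p among all genes. The adjusted p was 0.00136 by DESeq2 and 0.0177 without Yap control replicate 1, and it ran from 0.00136 to 0.834 over the alternatives. In whole liver, fewer cells that express a gene and less of its RNA per cell cannot be told apart, for Lgr5 as for every gene here.

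Lgr4, the second R-spondin receptor of the set (chromosome 2, 109917647 to 110014257, plus strand), measured 52.1 and 51.5 CPM in Yap1 knockout livers, against 49.9 and 26.2 CPM in Yap control livers. The knockouts were close to Yap control replicate 1, and the low value was that of replicate 2. The log2 fold change was 0.44 (SE 0.286, edgeR adjusted p = 0.490), and it was 0.054 without Yap control replicate 2. Leaving out replicate 1 instead, it was 0.96, and Lgr4 was then called with an adjusted p of 0.0102 (range over the alternatives 0.0102 to 0.892). Per kilobase of exon, Lgr5 reached 0.00724 and 0.00193 of the level of Lgr4 in the Yap1 knockouts, and 0.0276 and 0.127 of it in the Yap controls. The ratio lay between 0.00989 and 0.0310 in the 4 libraries of the Ctgf line, so the lowest of the 8 ratios were those of the Yap1 knockouts.

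Rnf43, the E3 ligase that clears Frizzled receptors (chromosome 11, 87662722 to 87735539, plus strand), measured 7.77 and 8.89 CPM in Yap1 knockout livers, against 20.7 and 15.6 CPM in Yap control livers. The replicates lay within 1.14-fold in the knockouts and 1.32-fold in the controls, closer than the distance between the groups. The log2 fold change was -1.13 (SE 0.235), which is 2.18-fold lower, with an edgeR adjusted p of 0.139 and 144 as its place in the order of p. DESeq2 gave an adjusted p of 0.00248. The log2 fold change was -0.94 without Yap control replicate 1 and -1.31 without replicate 2. It was also -1.31 when the 2 libraries that go against their labels or hold pancreatic transcripts were both left out. Over all alternatives the adjusted p ran from 0.00248 to 0.781, with log2 fold changes from -1.31 to -0.94.

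Znrf3, the paralogue of Rnf43 with the same role (chromosome 11, 5276324 to 5444847, minus strand), measured 17.9 and 20.6 CPM in Yap1 knockout livers, against 19.7 and 13.95 CPM in Yap control livers. The groups overlapped, with a log2 fold change of 0.19 (SE 0.232, edgeR adjusted p = 0.696) and of -0.031 without Yap control replicate 2. The ligases can be set against each other within a library, where the scaling to library size cancels. Per kilobase of exon, the ratio of Rnf43 to Znrf3 was 0.521 and 0.519 in the Yap1 knockouts, against 1.26 and 1.35 in the Yap controls. It was 1.17 and 1.52 in the livers labelled Ctgf knockout, against 1.49 and 1.13 in the Ctgf controls. The Yap1 knockouts were the only libraries in which Rnf43 stood below Znrf3 on this scale. The ratios of the Yap controls were close to each other, also where pancreatic transcripts were present. This ratio was chosen after the levels were seen and was not tested, so it only describes these 8 libraries.

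**Figure D3:**
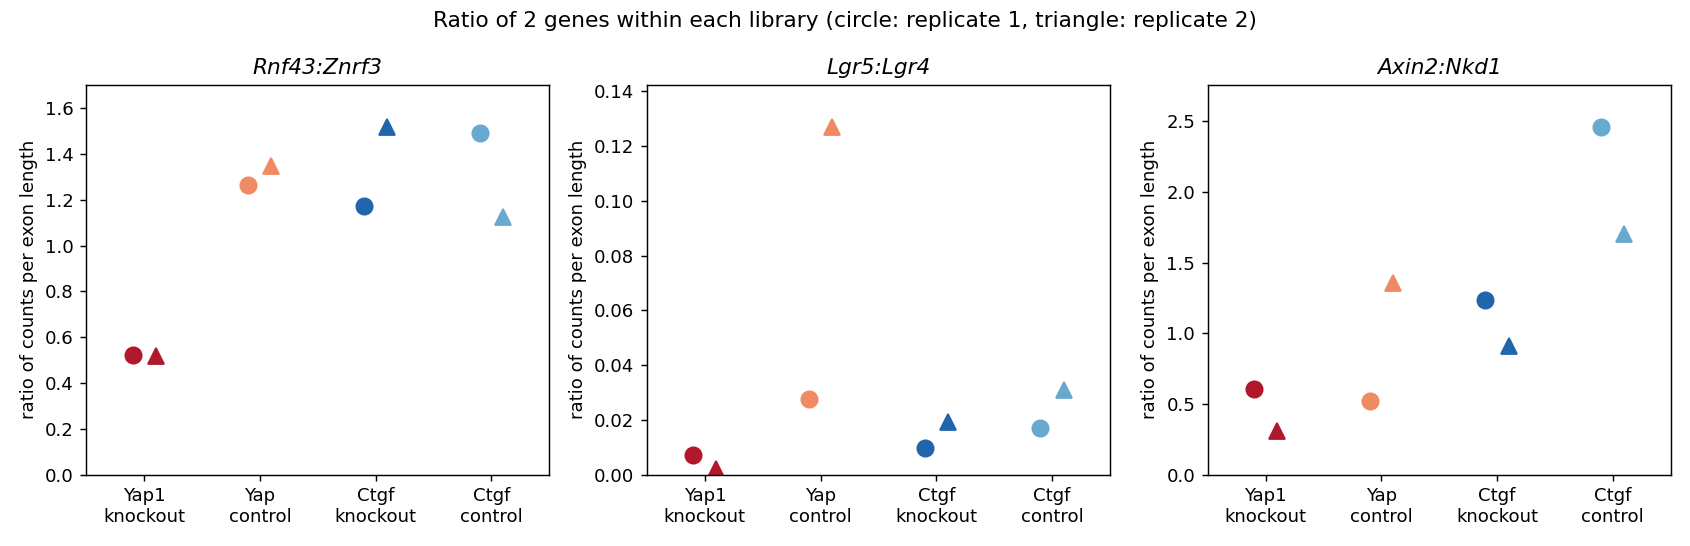
Ratio of counts per exon length of Rnf43 to Znrf3, of Lgr5 to Lgr4 and of Axin2 to Nkd1 within each library (linear axes from 0), by group; circles are replicate 1 and triangles replicate 2. The Rnf43 to Znrf3 ratio was 0.521 and 0.519 in Yap1 knockout livers, against least 1.13 in the other 6 libraries, while the Axin2 to Nkd1 ratio of the Yap1 knockouts overlaps that of the Yap controls.

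Axin2, the feedback scaffold used widely as a readout of β-catenin activity (chromosome 11, 108920349 to 108950783, plus strand), measured 3.26 and 2.11 CPM in Yap1 knockout livers, against 4.23 and 9.43 CPM in Yap control livers. The groups did not overlap, though Yap control replicate 1 lay nearer to the knockouts than to replicate 2. Its log2 fold change was -1.34 (SE 0.428, edgeR adjusted p = 0.262), and it was -0.65 without Yap control replicate 2. Leaving out replicate 1 instead, it was -1.84 and the adjusted p was 0.0146 (range over the alternatives 0.0146 to 0.834).

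Nkd1, the second feedback inhibitor, which binds Dishevelled (chromosome 8, 88521354 to 88594884, plus strand), measured 4.44 and 5.64 CPM in Yap1 knockout livers, against 6.72 and 5.76 CPM in Yap control livers. The gap between the nearest libraries was small, and the log2 fold change was -0.31 (SE 0.275, edgeR adjusted p = 0.602), and it was -0.41 without Yap control replicate 2. Per kilobase of exon, the ratio of Axin2 to Nkd1 was 0.607 and 0.310 in the Yap1 knockouts, against 0.521 and 1.35 in the Yap controls, and these ranges overlapped.

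Sp5, a zinc finger factor that Wnt signalling induces directly (chromosome 2, 70474923 to 70477729, plus strand), had 9 and 5 reads in Yap1 knockout livers, against 1 and 51 reads in the Yap controls. The knockouts lay between the controls, 0.296 and 0.173 CPM against 0.0277 and 2.10 CPM. The exact Poisson 95% interval of the single read was 0.0253 to 5.57 reads and that of the 51 reads was 37.97 to 67.1 reads, so the controls differed from each other beyond counting error. The log2 fold change was -2.11 (SE 1.31, edgeR adjusted p = 0.475) over both controls, -3.16 without Yap control replicate 1 and 2.92 without Yap control replicate 2, so its direction rests on which control is used. A fitted value against a single read depends on the tool's prior count and bounds nothing.

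Tbx3, a T-box repressor found in pericentral hepatocytes (chromosome 5, 119670669 to 119684724, plus strand), measured 6.78 and 4.71 CPM in Yap1 knockout livers, against 7.22 and 19.3 CPM in Yap control livers. As for Axin2, Yap control replicate 1 lay close to the knockouts. For Tbx3 the log2 fold change was -1.20 (SE 0.545, edgeR adjusted p = 0.380), and it was -0.33 without Yap control replicate 2. Leaving out replicate 1 instead, it was -1.78, with an adjusted p of 0.0430 (range over the alternatives 0.0430 to 0.834).

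Glul (chromosome 1, 153899944 to 153909723, plus strand) stood at 100.5 and 138 CPM in Yap1 knockout livers, against 75.7 and 119 CPM in Yap control livers. The groups overlapped, and replicate 2 was the higher one in each. Glul had a log2 fold change of 0.29 (SE 0.319, edgeR adjusted p = 0.669), and it was 0.66 without Yap control replicate 2.

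Counts of Axin2, Glul, Lgr5, Rnf43, Rspo3 and Tbx3 could include reads of annotated genes on the opposite strand, because the sources used here do not give the strand setting of the counting. Those of Glul, Nkd1, Rnf43 and Rspo3 could also include reads of annotated genes on the same strand, which are not among the genes counted. The opposite-strand neighbour of Lgr5 in the table, A930009A15Rik, had at most 1 read in any library, and that of Glul, Teddm2, had 2 to 13 reads.

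The second comparison asked the same of Ctgf. No member passed the test, and Axin2 had the smallest p. Axin2 stood at 9.29 and 6.55 CPM in the livers labelled Ctgf knockout, against 15.2 and 13.5 CPM in Ctgf control livers. It was lower in both, with a log2 fold change of -0.86 (SE 0.412, edgeR adjusted p = 1). The value was -0.63 without the library labelled Ctgf knockout replicate 2, the one in which Ctgf itself was not reduced. Lgr4 was the member that stood higher without overlap, at 55.5 and 60.3 CPM in the livers labelled Ctgf knockout, against 51.4 and 51.0 CPM in their controls (log2 change 0.18, SE 0.285, adjusted p = 1).

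The other 8 members overlapped between these groups. Lgr5 stood at 0.958 and 2.00 CPM in the livers labelled Ctgf knockout, against 1.53 and 2.76 CPM in the controls. Rnf43 stood at 23.8 and 27.03 CPM in those labelled knockout, against 29.9 and 24.4 CPM in the controls. Tbx3 parted the libraries labelled knockout from each other, at 20.9 and 8.49 CPM, around 16.2 and 14.7 CPM in the controls. Log2 fold changes of the 8 ran from -0.53 for Lgr5 (SE 0.685) to 0.28 for Rspo3 (SE 0.267). Without the library labelled Ctgf knockout replicate 2, Lgr5 lay at -1.16 and Tbx3 at 0.44. By edgeR's quasi-likelihood test 0 of 10 were called, where 0% of all genes were, and at an unadjusted p under 0.05 there were 0 of 10, where 1.98% of all genes were. DESeq2 called 0 of the 10 and 4 genes in all. Of all genes 16.8% lay lower without overlap and 15.5% higher, each against 1 of the 10, so these counts are near the background. The median of the 10 was -0.084, beside 0.0064 over all genes tested.

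**Figure D4:**
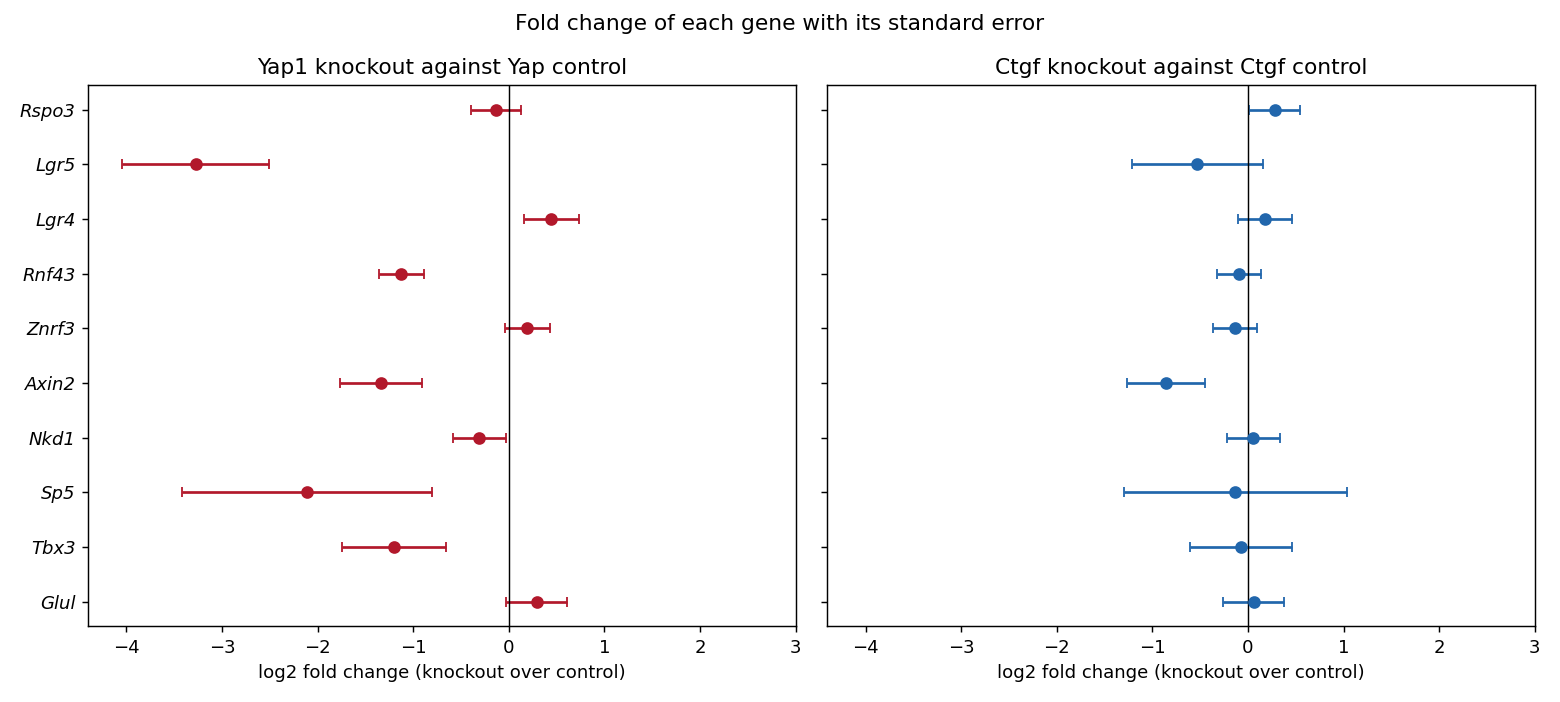
Log2 fold change of each gene with its standard error (bars) in Yap1 knockout against Yap control (left) and Ctgf knockout as labelled against Ctgf control (right); 0 is the vertical line. On the left Rnf43 and Lgr5 lie at -1.13 and -3.28; on the right every gene lies between -0.86 and 0.28.

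Whether Yap1 deletion and Ctgf deletion, the latter as labelled, differed in their effect was tested directly, as the Yap1 effect minus the Ctgf effect. Rnf43 had a difference of -1.03 on the log2 scale (SE 0.327, edgeR adjusted p = 0.506) and Lgr5 of -2.75 (SE 1.01, adjusted p = 0.531). Neither passed, and 0 of 10 were called, where 0% of all genes were. At an unadjusted p under 0.05 these were the 2 of 10 that were lower, where 4.19% of all genes were, and DESeq2 called 0 of the 10. Leaving out Yap control replicate 1, the log2 difference was 0.77 for Lgr4 and -3.03 for Sp5. Leaving out Yap control replicate 2 instead, it was -0.12 for Lgr4 and 3.06 for Sp5. The lower levels in the Yap1 knockouts are thus not shown to be particular to that line.

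The control groups of the lines were also set against each other. They differ in the floxed gene and in the virus, which cannot be told apart here, and this comparison shares the Yap controls with the first. Axin2 stood at 4.23 and 9.43 CPM in Yap control livers and at 15.2 and 13.5 CPM in Ctgf control livers (log2 change -1.08, SE 0.415, edgeR adjusted p = 0.181). Rspo3 stood at 14.4 and 19.5 CPM in Yap control livers and at 9.02 and 9.89 CPM in Ctgf control livers (0.84, SE 0.268, adjusted p = 0.129). Nkd1, the other feedback inhibitor of the set, overlapped between these groups (0.098, SE 0.274, edgeR adjusted p = 0.856). Rspo3 was higher and Axin2 lower in the Yap controls, each without overlap, and neither passed. Endothelial markers, from the known source of Rspo3, also stood higher there: they summed to 621 to 841 CPM in Yap control livers and to 402 to 517 CPM in Ctgf control livers, with 12 of 15 above 0, a median log2 change of 0.84 and 0 passing. Their part in the level of Rspo3 was not tested. Rnf43 and Znrf3 both lay at -0.58 on the log2 scale (SE 0.230 and 0.232, adjusted p = 0.193 and 0.196).

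In this comparison 0 of 10 were called, where 2.38% of all genes were. At an unadjusted p under 0.05, 1 of 10 was higher and 3 lower, where 12.2% and 10.4% of all genes were, and DESeq2 called 0 of the 10. The groups parted for 4 of 10 that were lower and 1 that was higher, where 27% and 26.1% of all genes did. Without Yap control replicate 2, the log2 change was -1.77 for Axin2 and -4.88 for Sp5. With both Yap controls it was -1.08 for Axin2 and 0.16 for Sp5. The Sp5 value rests on 1 read in Yap control replicate 1, against 22 and 40 reads in the Ctgf controls. Yap control replicate 2, left out there, had 51 reads. Without Yap control replicate 1, the log2 change was 1.06 for Rspo3, -0.94 for Lgr4, -0.77 for Rnf43 and -0.83 for Znrf3. Members called with 1 library left out are counted below, beside the counts of all genes. Without either Ctgf control, no member was called.

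The rest of the pathway was followed in lists of genes by role. Of the Wnt ligands and the proteins that release them, 8 of 21 were tested in the Yap1 comparison, and 0 passed. Wnt2 and Wnt9b, which the endothelium of the central vein and the sinusoids makes in mouse liver, had the smallest p-values. Wnt9b stood at 0.691 and 1.76 CPM in Yap1 knockout livers, against 3.10 and 8.56 CPM in Yap control livers (log2 change -2.24, SE 0.626, edgeR adjusted p = 0.218). Wnt2 stood at 1.51 and 2.53 CPM in Yap1 knockout livers, against 3.71 and 9.10 CPM in Yap control livers (-1.66, SE 0.526, adjusted p = 0.260). Without Yap control replicate 2 the log2 values were -1.33 for Wnt9b and -0.87 for Wnt2, and no gene of this list had an unadjusted p under 0.05. Wnt9a, the next by p, stood at 3.16 and 3.15 CPM in Yap1 knockout livers, against 2.02 CPM in each Yap control. Of the other R-spondins only Rspo1 was tested, at 0.173 to 0.956 CPM over the 8 libraries.

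Markers of liver endothelial cells, the known source of Rspo3, Wnt2 and Wnt9b, lay in both directions. Summed over 15 markers they stood at 1125 to 1153 CPM in Yap1 knockout livers, against 621 to 841 CPM in Yap control livers, with 0 at 0 in every library of a group. Clec4g, a lectin of sinusoidal endothelium, stood at 8.52 and 9.14 CPM in Yap1 knockout livers, against 28.4 and 75.8 CPM in Yap control livers. Lyve1, another sinusoidal marker, stood at 193 and 210.5 CPM in Yap1 knockout livers, against 81.8 and 73.7 CPM in Yap control livers. Without Yap control replicate 2 the log2 values were -1.68 for Clec4g and 1.30 for Lyve1. In the list 0 of 15 passed, and 9 lay higher without overlap and 5 lower, where 23.6% and 20.8% of all genes did. Its median was 0.51, and 0.22 without that control. The 10 stellate cell markers, a second known source of Rspo3, summed to 682 to 708 CPM in Yap1 knockout livers, against 596 to 736 CPM in Yap control livers, with a median log2 change of -0.066, and of -0.50 without replicate 2. The part of these cells in the levels of Rspo3 and the Wnt ligands was not tested.

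Among 15 secreted Wnt inhibitors, 5 were tested and 0 passed in the Yap1 comparison. Notum, which removes a lipid from Wnt proteins and is a pericentral β-catenin target in mouse liver, stood at 1.42 and 0.692 CPM in Yap1 knockout livers, against 6.44 and 20.6 CPM in Yap control livers (log2 change -3.67, SE 0.829, edgeR adjusted p = 0.155). In the Ctgf line it parted the replicates, at 3.33 and 13.7 CPM in the livers labelled Ctgf knockout, against 3.98 and 5.37 CPM in the controls. Dkk3, a member of the Dickkopf family, stood at 1.25 and 2.25 CPM in Yap1 knockout livers, against 3.95 and 6.01 CPM in Yap control livers (-1.51, SE 0.406, adjusted p = 0.209). Without Yap control replicate 2 the log2 values were -2.60 for Notum and -1.18 for Dkk3. Kremen1, a receptor for Dickkopf proteins, stood at 34.5 and 40.1 CPM in Yap1 knockout livers, against 25.7 and 26.1 CPM in Yap control livers.

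Receptors and transducers were mixed, again with 0 passing. Of the 16 receptors and coreceptors 13 were tested, whose median log2 change was 0.35, and 6 lay higher without overlap and 1 lower, where 23.6% and 20.8% of all genes did. Ror1, a receptor of β-catenin-independent Wnt signals, stood at 24.4 and 25.3 CPM in Yap1 knockout livers, against 11.5 and 4.03 CPM in Yap control livers (1.67, SE 0.426, edgeR adjusted p = 0.193). The 14 genes of the β-catenin destruction complex and its transducers had a median of 0.23 with 9 of 14 above 0, and the kinase gene Gsk3b stood at 110 and 132 CPM in Yap1 knockout livers, against 84.5 and 53.1 CPM in Yap control livers. Without Yap control replicate 2 the medians were 0.12 for the receptors and -0.0023 for the destruction complex, of which 7 of 14 were then above 0. The log2 value of Ror1 was then 1.11, against 1.67 over both controls. Of the TCF factors and cofactors 11 of 12 were tested, with a median of -0.11. Tle3, a corepressor of TCF factors, stood at 50.5 and 46.9 CPM in Yap1 knockout livers, against 29.9 and 20.4 CPM in Yap control livers (0.95, SE 0.231, adjusted p = 0.178), with a log2 value of 0.71 without Yap control replicate 2.

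Other Wnt targets were mixed, with 11 of 12 tested, a median of 0.41 and 0 passing. Ccnd1, which encodes the G1 cyclin D1 and is a target of β-catenin and of other signals, stood at 22.4 and 26.1 CPM in Yap1 knockout livers, against 78.6 and 105 CPM in Yap control livers (-1.92, SE 0.265, edgeR adjusted p = 0.0557), and its log2 value was -1.69 without replicate 2 (adjusted p = 0.0637). It stood at 81.3 and 71.6 CPM in the livers labelled Ctgf knockout, against 128 and 190.3 CPM in Ctgf control livers (-1.06, SE 0.257, adjusted p = 1). Nkd2, the relative of Nkd1, stood at 2.21 and 1.66 CPM in Yap1 knockout livers, against 0.664 and 0.576 CPM in Yap control livers. Lect2, a secreted hepatocyte protein, stood at 37.7 and 41.1 CPM in Yap1 knockout livers, against 41.6 and 149.7 CPM in Yap control livers, and its log2 value was -0.078 without the high control.

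Pericentral enzymes and transporters beyond Glul, 20 genes, had a median log2 fold change of -0.85 in the Yap1 comparison, with 9 of 20 lower at an unadjusted p under 0.05, where 7.14% of all genes were, and 0 passing over all genes. Summed, they stood at 1251 to 1340 CPM in Yap1 knockout livers, against 1393 and 3626 CPM in Yap control livers. The high control was the one with pancreatic transcripts, and without it the median was -0.013, with 4 lower and 2 higher at an unadjusted p under 0.05. Cyp2e1, the cytochrome that activates carbon tetrachloride, stood at 115 and 180.2 CPM in Yap1 knockout livers, against 58.8 and 394 CPM in Yap control livers. It stood at 871 and 844 CPM in the livers labelled Ctgf knockout, against 840 and 769 CPM in Ctgf control livers. Cyp1a2, a pericentral cytochrome under Wnt control in mouse, stood at 5.56 and 3.36 CPM in Yap1 knockout livers, against 15.2 and 26.6 CPM in Yap control livers (-2.22, SE 0.610, edgeR adjusted p = 0.215), and lay at -1.76 without replicate 2. With the control with pancreatic transcripts left out, Cyp2e1 lay on the other side of 0, with a log2 value of 1.33. Aldh1a1, a retinal dehydrogenase, had the smallest p of the list, at 51.8 and 70.6 CPM in Yap1 knockout livers, against 141 and 263 CPM in Yap control livers (-1.72 over both controls and -1.20 without replicate 2). Rgn, a calcium-binding protein, was at 31.4 and 43.9 CPM in Yap1 knockout livers, against 70.1 and 229 CPM in Yap control livers (-1.99 over both and -0.90 without replicate 2). Nr1i3, the xenobiotic receptor CAR, was at 37.5 and 43.1 CPM in Yap1 knockout livers, against 64.3 and 262 CPM in Yap control livers (-2.02 over both and -0.67 without replicate 2). The levels of Rgn and Nr1i3 in Yap control replicate 1 thus lay nearer to the knockouts than to replicate 2.

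Marker sums of other cells of the tissue also differed between these groups. The 10 neutrophil markers summed to 520.0 to 1036 CPM in Yap1 knockout livers, against to 142 to 259 CPM in Yap control livers, and all 10 lay higher without overlap, where 23.6% of all genes did, with 0 passing. Their median log2 change was 2.32, and 3.04 without Yap control replicate 2. The 7 erythroid markers summed to 403 to 467 CPM in Yap1 knockout livers, against to 123 to 229 CPM in Yap control livers, with a median log2 change of 1.25, and of 1.89 without replicate 2. The 8 hepatocyte markers summed to 61260 to 77831 CPM in Yap1 knockout livers, against to 53955 to 91402 CPM in Yap control livers. Exocrine pancreas markers were near 0 in both Yap1 knockouts and in Yap control replicate 1. The part of these cells in the levels of the 10 genes was not tested.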

How the data were processed

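The authors deposited raw read counts per gene symbol for 8 liver libraries. The tools named per the submitters' processing notes are STAR 2.6.0a, HTSeq 0.6.1 and bcl2fastq 2.20.0.422, and the builds mm10 and GRCm38. Neither the annotation nor the strand setting is given in the sources used here. Positions and exon lengths came from GENCODE M21 (GRCm38) by symbol.

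Counts were fitted with edgeR 4.0.16 (R 4.3.3): TMM scaling, edgeR's low-count filter (13999 genes tested), 1 model of 4 groups (4 residual degrees of freedom), quasi-likelihood F tests and Benjamini-Hochberg adjustment over all genes. The threshold was an adjusted p of 0.05. Fold changes are log2, first-named group over second. The labels do not say that replicates were separate animals, so p-values reflect only sample-to-sample spread, possibly technical.

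Alternatives were RLE and upper-quartile scaling, DESeq2 1.42.0, limma-voom (limma 3.58.1), other filters, a replicate block, only the libraries compared, and libraries left out. The 10 genes, 16 lists and tests were chosen with earlier results of these data known. All 10 genes were named, with the genes of smallest p per list; others named, such as Lgr4 ratios and Cyp2e1, were chosen after their values were seen.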

Additional observations from a re-analysis of the deposited data

How the results depend on the processing

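Counts of called genes moved most with the tool and with the controls. DESeq2 called 558 genes in the Yap1 comparison (2 members), 4 in the Ctgf comparison, 166 for the difference of effects and 1605 between the control groups; limma-voom called 1 in the Ctgf comparison. Without a low-count filter 37 were called for Yap1 and 2 for the difference. With only the libraries of the comparison 0 were called for Yap1 and 0 between the controls. A fit with the replicate block called 219 between the controls; for Yap1 it called 3. Same-numbered samples did not deviate together (correlation 0.072 and 0.068). Each Yap control's title names a Yap1 knockout by a number; for replicate 2 that number also stands in the column name of Yap1 knockout replicate 2, but for replicate 1 it stands in the control's own, so whether these libraries are pairs is unclear. The block changed no member's call. Leaving out Yap control replicate 2 together with Ctgf knockout replicate 2 (as labelled), 938 genes (1 member) were called for Yap1, 143 for the difference and 4056 (3 members) between the controls.

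With 1 library left out at a time, the ranges were 0 to 3728 genes and 0 to 6 members for Yap1, 0 to 2092 and 0 to 2 for the difference, and 0 to 3699 and 0 to 4 between the controls; the highest came without Yap control replicate 1. Log2 fold changes that crossed 0 ran, for Yap1, from -0.36 to 0.097 (Rspo3), -0.031 to 0.44 (Znrf3), -3.16 to 2.92 (Sp5) and -0.026 to 0.66 (Glul). For Ctgf they ran from -0.22 to 0.063 (Rnf43), -0.11 to 0.26 (Nkd1), -0.43 to 0.27 (Sp5), -0.85 to 0.44 (Tbx3) and -0.23 to 0.33 (Glul). For the difference they ran from -0.12 to 0.77 (Lgr4), -0.99 to 0.20 (Axin2), -3.03 to 3.06 (Sp5) and -0.096 to 0.59 (Glul). Between the controls they ran from -0.061 to 0.31 (Nkd1), -4.88 to 1.21 (Sp5), -1.10 to 0.34 (Tbx3) and -0.17 to 0.51 (Glul).

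With both left out, signs changed to 0.096 (Rspo3), -0.032 (Znrf3) and 2.92 (Sp5) for Yap1, 0.44 (Tbx3) and -0.24 (Glul) for Ctgf, 0.067 (Rspo3), -0.065 (Lgr4) and 2.98 (Sp5) for the difference, and -4.88 (Sp5) and -0.17 (Glul) between the controls. Sp5 also changed sign with limma-voom (0.086 for the difference, -1.89 between the controls) and with the replicate block (-0.19 between the controls). The cause of these changes was not tested. Lgr5, Rnf43, Axin2, Tbx3 and Nkd1 kept their sign for Yap1 in all alternatives run. Upper-quartile scaling moved the median of all genes between the controls to 0.18, and no member changed sign with it. Depth limits Sp5 and Lgr5, whose lowest counts were 1 and 5 reads.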

Other observations

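Periportal hepatocyte genes, which mark the opposite end of the lobule, were mixed in sign in the Yap1 comparison, with 11 of 20 above 0 and 0 passing by edgeR. At an unadjusted p under 0.05, 5 of 20 were higher and 1 lower, where 6.64% and 7.14% of all genes were. DESeq2 called 3 higher and 1 lower, among 558 genes in all. Summed, they stood at 11782 to 12854 CPM in Yap1 knockout livers, against 9892 to 10466 CPM in Yap control livers. Cps1, the first enzyme of the urea cycle, stood at 2364 and 2408 CPM in Yap1 knockout livers, against 1145 and 1059 CPM in Yap control livers (log2 change 1.11, SE 0.233, edgeR adjusted p = 0.139; 1.06 without Yap control replicate 2). Arg1, which releases urea and is also made by macrophages, stood at 2406 and 3474 CPM in Yap1 knockout livers, against 1299 and 1286 CPM in Yap control livers. Pigr, which carries immunoglobulin A into bile, stood at 101 and 86.1 CPM in Yap1 knockout livers, against 228 and 294 CPM in Yap control livers. Of the 7 cholangiocyte markers 1 was above 0 and 6 below, with a median log2 change of -0.61 and 0 passing, but without Yap control replicate 2, which held the pancreatic transcripts, 6 were above 0 and the median was 0.93. Sox9, the marker above 0 over both controls, stood at 93.5 and 80.6 CPM in Yap1 knockout livers, against 45.8 and 56.6 CPM in Yap control livers. Krt19 stood at 3.06 and 2.42 CPM in Yap1 knockout livers, against 1.44 and 32.6 CPM in Yap control livers, the highest value being that of replicate 2.

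Between the control groups, list genes past the edgeR threshold were Tcf7l1 and the stellate cell gene Des, higher in the Yap controls, and Fosl1, Cth, Sox9 and Camp, lower there. Tcf7l1, a TCF factor that mostly represses Wnt targets, stood at 17.0 and 18.2 CPM in Yap control livers and at 6.69 and 6.03 CPM in Ctgf control livers (log2 change 1.47, SE 0.269, edgeR adjusted p = 0.0427).

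The genes whose profile over the 8 libraries lay nearest to that of Lgr5, by the root-mean-square difference of centred log2 CPM, were Fmo1 (0.351), Csad (0.464) and Acot1 (0.479), where the SD of the Lgr5 profile was 1.41. For Axin2 (SD 0.999) they were Cyp4f15 (0.268), Pwwp2b (0.287) and Slc16a12 (0.291), and for Glul (SD 0.351) Fam102a (0.117), Klf11 (0.144) and Prelid1 (0.149), searched among 13989 genes. Fmo1, a flavin monooxygenase, stood at 19.2 and 11.4 CPM in Yap1 knockout livers, against 74.4 and 122 CPM in Yap control livers. The libraries of the lines stand apart, so these values are a description.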
